A study of Mus musculus with 4 samples.

Results

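Layer 5 spots are the capture spots of a mouse brain section that carry the most RNA of cortical layer 5, a deep layer of the cerebral cortex. They were chosen by measured expression: in each of 4 sections the 150 spots with the highest score were taken, 600 of 13452 spots in all. The score is the mean, over Myl4, Fezf2, Gm19410, Dkkl1, Npnt and Rbp4, of the natural logarithm of 1 plus the gene's UMIs (counted RNA molecules) per 10000 UMIs of the spot. A spot is wider than a cell, so each holds RNA of several neighbouring cells. Layer 5 is the main output layer of the cortex. Its large pyramidal neurons send axons to the brainstem, spinal cord, thalamus and tectum, while a separate class projects within the cortex and to the striatum; Fezf2 specifies the former. Their apical dendrites cross the upper layers to the surface, and sensory or motor activity induces immediate-early genes such as Fos, Arc and Egr1 in them.

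The study asked what excess folic acid in the mother's diet does to the brain of the offspring. Wild-type C57BL/6J dams ate a diet with 2 mg/kg folic acid (MF, the control) or 20 mg/kg (HF) from 2 weeks before mating until the end of lactation. Coronal brain sections of their male pups at postnatal day 21 were profiled with the Visium probe assay for formalin-fixed tissue, with 2 sections per diet. The sections of a diet came from the blocks of separate biological replicates. Whether these were of separate litters is not given in the sources used here, so p-values below measure the spread between sections.

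Values for the sections are given in the order MF replicate 1, MF replicate 2, HF replicate 1, HF replicate 2. They held 3598, 3314, 3197 and 3343 spots with at least 500 UMIs and 250 genes, after 18 spots below these limits were removed, and 90096877, 42422997, 34982061 and 42506921 UMIs. MF replicate 1 stood apart in depth: its layer 5 spots summed to 4819468 UMIs, against 1636510, 1562585 and 1802819 in the other sections. The median layer 5 spot held 31597.5, 10696.5, 9666 and 11540 UMIs and 7598, 4633.5, 4371 and 4823.5 genes. Barcodes mark array positions, and 2472 of them occurred in all 4 sections, as the shared array design gives. Levels are UMIs per 1000000 UMIs of the summed spots (CPM); each gene is read by its own probes, so levels of different genes are not compared.

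The score genes describe the choice. They stayed in the fit between the diets, but as they chose the spots they are given without a test. Fezf2, the transcription factor of subcortical projection neurons, measured 159, 149.7, 188 and 209.7 CPM in layer 5 spots and 26.0, 21.4, 26.4 and 28.6 CPM in all other spots of the same sections. Myl4, an atrial myosin light chain, measured 253, 299, 305 and 286 CPM against 36.0, 35.4, 33.6 and 30.3. The matrix protein gene Npnt measured 139, 127, 140.2 and 116 CPM against 38.0, 34.3, 39.8 and 31.1. All 3 were several times higher inside the choice in every section. The predicted gene Gm19410 reached 79.5, 93.5, 96.6 and 100.4 CPM against 17.3, 16.3, 14.6 and 16.6, the secreted protein gene Dkkl1 41.5, 59.3, 57.6 and 62.1 against 10.5, 10.1, 6.97 and 9.46, and the retinol carrier gene Rbp4 66.2, 80.0, 70.4 and 52.1 against 14.8, 10.9, 12.3 and 11.6. The score of the last spot inside the choice was 0.558, 0.517, 0.565 and 0.538, and that of the next spot outside it 0.557, 0.517, 0.564 and 0.538, so the boundary falls in a continuous range. The median score was 0.656, 0.645, 0.673 and 0.647 inside and 0.136, 0.118, 0.118 and 0.111 outside.

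Single layer 5 spots differed in how many of the 6 genes they showed. The median spot held UMIs of 5, 4, 4 and 4 score genes, against 2, 1, 1 and 1 in the other spots, and 66, 6, 7 and 9 layer 5 spots held all 6. The largest count was in MF replicate 1, the deepest section, and the part of depth in it was not tested. With spots thinned to 5000 UMIs the median number of score genes seen was 3 in each section, against 0 outside. Spots with fewer UMIs were left out of this, which kept 150, 147, 133 and 150 layer 5 spots and dropped 9, 95, 493 and 125 others. Fezf2 was then seen in 57.3%, 56.5%, 57.9% and 62.7% of the layer 5 spots kept and in 11.0%, 10.9%, 11.9% and 12.4% of the others. Choosing on thinned spots kept 81, 86, 84 and 97 of the 150 spots, and the part of depth in this was not tested.

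Position was not used to choose the spots, yet they formed a band that follows the outer edge of the tissue. Of the array neighbours of a layer 5 spot, 44.6%, 31.8%, 30.9% and 40.2% were layer 5 spots too, against 2.42%, 3.24%, 3.43% and 2.80% of the neighbours of other spots. At least 1 neighbour was a layer 5 spot for 134, 110, 113 and 132 of the 150. The longest connected run held 69, 40, 20 and 29 spots, and 16, 40, 37 and 18 spots stood alone. Lone spots were most numerous in MF replicate 2 and HF replicate 1, so their number did not follow the diet, while the longest run was shorter in both HF sections than in both MF sections. For comparison, 150 spots per section were chosen in the same way from layer 2-3 genes (Cux2, Rasgrf2, Lamp5, Stard8, Otof and Calb1) and from layer 6 genes (Foxp2, Syt6, Hs3st4, Tle4, Rprm and Garnl3). The median distance to the outer tissue edge, in spot spacings, was 9, 8, 7 and 8 for layer 5, 3 in every section for layer 2-3, and 11, 10, 10 and 11 for layer 6. Layer 5 spots therefore lay between the other sets in all 4 sections. Before each spot was assigned to a single set, 1, 3, 3 and 1 of the top 150 by the layer 2-3 score and 16, 12, 21 and 6 of the top 150 by the layer 6 score were layer 5 spots. Layer 5 thus shared more spots with the layer 6 choice than with the layer 2-3 choice. The authors' deposited Moran's I, a score of how strongly a gene's level clusters in space, was 0.392, 0.292, 0.293 and 0.347 for Myl4 and 0.449, 0.208, 0.243 and 0.311 for Fezf2.

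**Figure D1:**
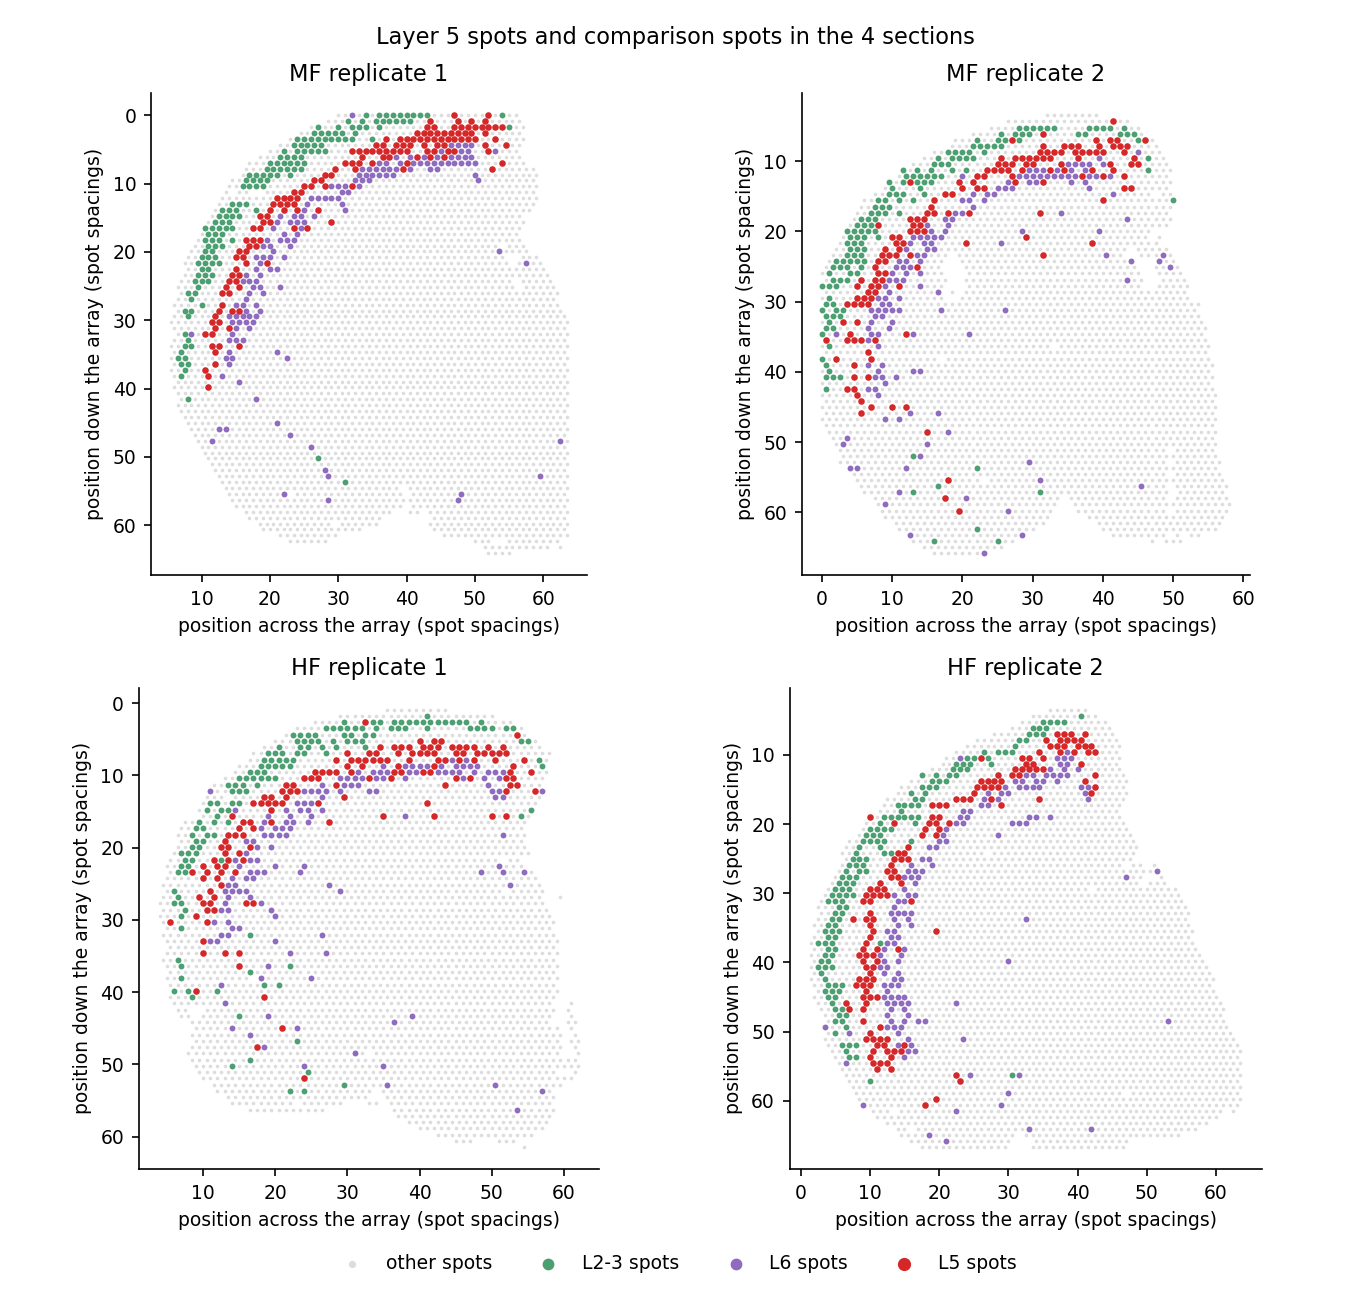
Position of every spot on the array, in spot spacings, for the 4 sections; red points are layer 5 spots, green and purple points the layer 2-3 and layer 6 comparison spots, grey points all remaining spots. The red points form a band between green and purple, with 16, 40, 37 and 18 layer 5 spots that touch no other.

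Genes outside the score describe what the layer 5 spots share. As the spots were chosen on expression of the same libraries, these ratios carry no test, and a higher level cannot be told apart from more cells of a type in a spot. Among 7443 other genes with at least 20 CPM in layer 5 spots of every section, the 20 with the highest ratio to the other spots, judged by the lowest of the 4 sections, had log2 ratios between 1.04 and 2.02. Hs3st2, which encodes a heparan sulfate sulfotransferase, measured 111, 87.4, 98.6 and 110.4 CPM against 33.5, 27.9, 27.3 and 30.6 outside (log2 ratio 1.62 to 1.82). Npr3, the natriuretic peptide clearance receptor, measured 32.2, 23.2, 37.8 and 39.4 CPM against 9.96, 9.59, 10.4 and 10.0 (1.19 to 1.87), and Dkk3, a secreted modulator of the Wnt pathway, 258, 214, 236 and 248 against 118, 97.7, 106 and 114 (1.11 to 1.15). Each was higher in layer 5 spots in all 4 sections. Trbc2, a T cell receptor constant segment, had ratios of 1.48 to 1.89, and the chromatin organiser Satb1 1.28 to 1.51. The 20 also held Gm11549, Sowahb, Amn, Mpped1, 1110008P14Rik, the neuropeptide gene Cort, the immediate-early gene Egr4, the neurexin ligand Nxph3, the somatostatin receptor Sstr4, the phosphodiesterase Pde1a, the repressor Bcl6, the growth factor receptor Met and the calcium sensor Cabp1. Cort varied most between sections, with 47.9, 29.3, 49.9 and 27.2 CPM and ratios of 1.08 to 2.02.

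Set against the neighbouring layers, 15 of the 20 genes were higher in layer 5 than in layer 2-3 spots in every section, 13 were higher than in layer 6 spots, and 9 were higher than in both. Among the 9 were Satb1, Sowahb, Npr3, Amn, Mpped1, 1110008P14Rik, Pde1a and Bcl6. Bcl6 measured 73.0, 72.1, 80.0 and 89.9 CPM in layer 5 spots, 29.1, 24.1, 37.9 and 41.2 in layer 2-3 spots and 27.1, 24.8, 33.1 and 36.9 in layer 6 spots. Trbc2, Hs3st2 and Nxph3 were instead lower in layer 5 than in layer 6 spots in every section. Trbc2 measured 113, 88.9, 109 and 148 CPM in layer 6 spots against 65.6, 53.8, 56.3 and 63.8 in layer 5. Egr4, Met and Cabp1 were lower in layer 5 than in layer 2-3 spots throughout. When 100 or 250 spots were taken per section, 17 and 14 of the 20 genes were again among the 20 highest, and 12 were with spots thinned to 5000 UMIs.

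**Figure D2:**
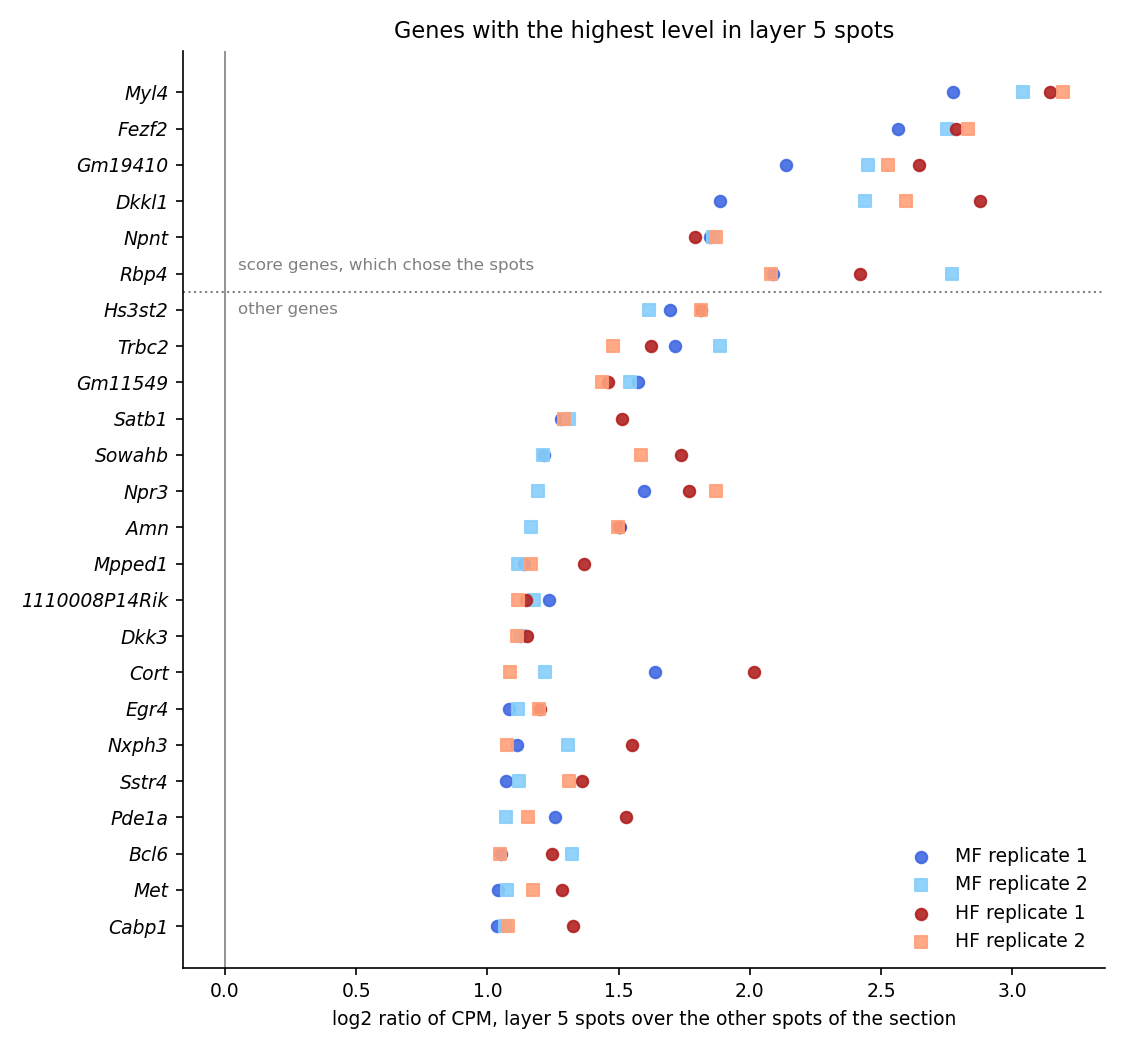
Log2 ratio of CPM in layer 5 spots to CPM in all other spots of the section, 1 point per section; above the dotted line are the 6 genes that chose the spots, below it genes among the 20 others with the highest ratio, those named in the text. All points below the line lie between 1.04 and 2.02, and Cort spreads most.

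Marker lists fit the label in part. Of 13 markers of extratelencephalic layer 5 neurons, whose axons leave the forebrain, 7 were higher in layer 5 spots than outside in every section and 3 (Vat1l, Slco2a1 and Stac) were lower. Among all 18966 genes with a UMI, 2318 were higher and 6056 lower in every section. Crym, a thyroid hormone binding protein, measured 72.0, 51.9, 77.4 and 78.8 CPM in layer 5 spots and 40.6, 33.7, 35.2 and 42.3 in the remaining spots, those in none of the 3 sets. The POU factor Pou3f1 measured 51.0, 51.3, 55.7 and 54.4 CPM against 28.9, 25.4, 28.2 and 34.4, and the membrane mucin Parm1 69.3, 78.8, 80.0 and 74.3 against 42.7, 41.9, 42.5 and 33.9. All 3 were higher in layer 5 spots in each section. Bcl11b, a regulator of corticospinal axon growth, differed less, with 28.4, 28.7, 35.2 and 34.9 CPM against 23.3, 22.2, 21.5 and 28.0. Slco2a1, Chrna6 and Stac, also markers of these neurons, were at or below 3.53 CPM in layer 5 spots of every section. Of 9 measured markers of intratelencephalic layer 5 neurons, 6 were higher and 1, Endou, was lower in layer 5 spots in every section; among the higher was the sulfatase Sulf2 with 131, 114, 125 and 140.3 CPM against 78.9, 76.2, 73.2 and 72.5. Of 6 near-projecting markers, 2 were higher and 1, Rapgef3, was lower in every section, and the median log2 ratio of the list was -0.03, -0.09, 0.16 and 0.63.

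Neurofilament and channel genes of large fast-firing axons were mixed, with 7 of 13 higher and 5 lower in every section. Nefm, a neurofilament subunit, measured 477, 461, 419 and 452 CPM in layer 5 spots, 358, 334, 306 and 303 in layer 6 spots and 312, 293, 291 and 330.2 in the remaining spots. Nefh, the heavy neurofilament subunit, measured 133, 126, 124 and 112 CPM in layer 5, 65.8, 60.2, 79.1 and 54.5 in layer 6 and 57.9, 52.1, 50.8 and 34.0 in layer 2-3 spots, so layer 5 was the highest of the 3 sets in all sections. Slc17a7, the vesicular glutamate transporter of the cortex, measured 3307, 3051, 3275 and 3358 CPM, against 1693, 1597, 1517 and 1589 in the remaining spots. Slc17a6, its subcortical relative, measured 47.5, 48.3, 46.7 and 33.3 CPM against 178, 202, 243 and 167. The layer 5 spots thus held a cortical glutamatergic profile in all 4 sections.

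RNA of other layers and cell types was present too. Among layer 6 markers, Rprm measured 91.5, 91.7, 82.6 and 67.1 CPM in layer 5 spots and 233, 230.1, 236 and 244 in layer 6 spots, and Foxp2 10.4, 9.17, 7.04 and 4.44 against 26.7, 22.5, 28.8 and 39.7. Lamp5, a layer 2-3 marker, measured 283, 268, 298 and 241 CPM against 681, 688, 722 and 638 in layer 2-3 spots. These 3 genes are among those that chose the layer 6 and layer 2-3 spots, so their higher levels there follow from the choice. The myelin protein gene Mbp measured 4140.1, 5469.6, 4294 and 3329 CPM, between 2960.0, 3083, 2202 and 1789.8 in layer 2-3 and 6663, 7425, 6820.4 and 5495 in layer 6 spots, and all 12 myelin genes were lower in layer 5 spots than outside in every section. Pvalb, of fast-spiking interneurons, measured 306, 285, 229 and 235 CPM, and Sst, of dendrite-targeting interneurons, 620.2, 802, 787 and 665 CPM, both above layer 2-3 spots (209, 187, 148 and 165 and 469, 471, 611 and 326) in every section; of all 14 interneuron genes 6 were higher and 4 lower in layer 5 spots than outside in every section. The 5 most depleted of 8138 genes were Dlk1, Baiap3, Synpo2, Gm5741 and Six3. Dlk1, an imprinted gene with high levels in hypothalamus, measured 5.81, 7.94, 2.56 and 4.99 CPM against 50.3, 66.2, 66.4 and 41.4 (log2 ratio -4.24 to -2.82), and Six3, a ventral forebrain homeobox gene, 5.19, 4.28, 3.84 and 8.87 against 29.2, 30.6, 28.9 and 68.0.

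Layer 5 spots with at least 2 layer 5 neighbours (110, 87, 87 and 108) and lone spots with none (16, 40, 37 and 18) differed in what they held. Myl4 measured 271, 346, 318 and 314 CPM in the former and 194, 227, 272 and 133 in the latter. Of the 20 genes with the highest ratios, 11, 19, 17 and 16 were higher in the spots with neighbours, and of the 6 score genes 5, 6, 3 and 3 were. Mbp measured 3802, 4843, 3557 and 2949 CPM with neighbours and 6139, 7022, 5938 and 5403 in lone spots, and 0, 1, 0 and 0 of the 12 myelin genes were higher in the spots with neighbours. Lone spots thus had higher levels of nearly all myelin genes, while Dkkl1, Npnt and Rbp4 in the HF sections, and Rbp4 in MF replicate 1, were also higher in lone spots. Their median distance to the outer edge was 10.5, 10, 9 and 7.5 spot spacings, against 9, 7, 7 and 8.

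HF and MF layer 5 spots were compared on counts summed per section, to ask which genes of this layer differ with the mother's diet. Several immediate-early genes, which neurons switch on within minutes of activity, were called higher in HF, and others were not. Of 10923 genes tested with edgeR, 7 were called higher (0.0641%) and 4 lower (0.0366%) in HF, a call being an adjusted p under 0.05 with at least a 1.2-fold change, and 606 genes had an unadjusted p under 0.05. Both HF sections lay above both MF sections for 1860 genes (17%) and below them for 1849 (16.9%). The 7 genes called higher were Egr1, Fos, Arc, Nr4a1, Cxcl12, Nr4a3 and Dusp6, and the 4 called lower were Pmch, Btaf1, Prkcd and Mt2. In each of the 11 genes the groups did not overlap, 2 sections against 2. In the comparison of diets, CPM of single genes in layer 5 spots are TMM-scaled. Summed levels of lists, levels in other spots and layer 5 levels of hypothalamic peptides other than Pmch are unscaled, and so are all levels where Pmch is compared between layers. Each log2 fold change of a tested gene is first given with its standard error.

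Egr1 (ENSMUSG00000038418), a zinc finger transcription factor of neuronal activity, had the largest rise. It measured 75.2 and 99.4 in MF replicates 1 and 2 and 308 and 574 in HF replicates 1 and 2 (log2 fold change 2.40 ± 0.20, adjusted p = 6.1e-06). Both HF sections lay above both MF sections, and the HF sections differed among themselves. UMIs of Egr1 were seen in 88%, 65.3%, 87.3% and 100% of layer 5 spots. Fos (ENSMUSG00000021250, chr12:85473890-85477273 in mm10), a subunit of the AP-1 transcription factor, measured 5.44 and 5.52 in MF replicates 1 and 2 and 25.1 and 17.9 in HF replicates 1 and 2 (log2 fold change 1.95 ± 0.31, adjusted p = 0.014). Its counts were low, with 26, 9, 39 and 32 UMIs over the 150 spots. Arc (ENSMUSG00000022602, chr15:74669083-74672570), a dendritic protein that removes glutamate receptors from synapses, measured 59.7 and 54.6 in MF replicates 1 and 2 and 214 and 94.1 in HF replicates 1 and 2 (log2 fold change 1.39 ± 0.24, adjusted p = 0.028). HF replicate 1 was the highest section, and without it the Arc log2 fold change was 0.69. Egr1 was called in all 13 alternative settings, with log2 fold changes of 1.89 to 2.78. Fos was not called with DESeq2, with spots thinned to 5000 UMIs or with spots chosen after thinning (1.42 to 2.19 over all alternatives), and Arc was not called with DESeq2 or with spots chosen after thinning (0.69 to 1.88).

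Nuclear receptors and a phosphatase of the same response followed. Nr4a1 (ENSMUSG00000023034, chr15:101254269-101274795), an orphan nuclear receptor, measured 57.6 and 61.3 in MF replicates 1 and 2 and 132 and 91.3 in HF replicates 1 and 2 (log2 fold change 0.91 ± 0.16, adjusted p = 0.028). Its relative Nr4a3 (ENSMUSG00000028341, chr4:48045153-48086447) measured 46.5 and 46.6 in MF replicates 1 and 2 and 79.2 and 79.5 in HF replicates 1 and 2 (log2 fold change 0.77 ± 0.14, adjusted p = 0.043). Dusp6 (ENSMUSG00000019960, chr10:99263231-99267489), which switches off ERK kinase signalling, measured 57.6 and 73.6 in MF replicates 1 and 2 and 115 and 100.3 in HF replicates 1 and 2 (log2 fold change 0.76 ± 0.14, adjusted p = 0.048). In all 3 genes both HF sections lay above both MF sections, and in Nr4a3 and Dusp6 they lay close together. Cxcl12 (ENSMUSG00000061353, chr6:117168535-117181367), a chemokine that guides migrating neurons, measured 46.3 and 43.6 in MF replicates 1 and 2 and 71.5 and 83.5 in HF replicates 1 and 2 (log2 fold change 0.78 ± 0.15, adjusted p = 0.048). These calls were less steady than that of Egr1. With DESeq2, thinned spots or spots chosen after thinning none of the 4 was called. Nr4a1 was also not called with 100 spots per section or with only spots that have 2 layer 5 neighbours. Nr4a3 was not called with 100 spots, without MF replicate 1 (0.77) or without MF replicate 2 (0.77). Dusp6 was not called with library size scaling, with 100 or 250 spots, with 2 layer 5 neighbours required or without MF replicate 1 (0.54). Cxcl12 was not called with library size scaling, with 250 spots, without MF replicate 1 (0.83), without MF replicate 2 (0.75) or without HF replicate 2 (0.66).

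**Figure D3:**
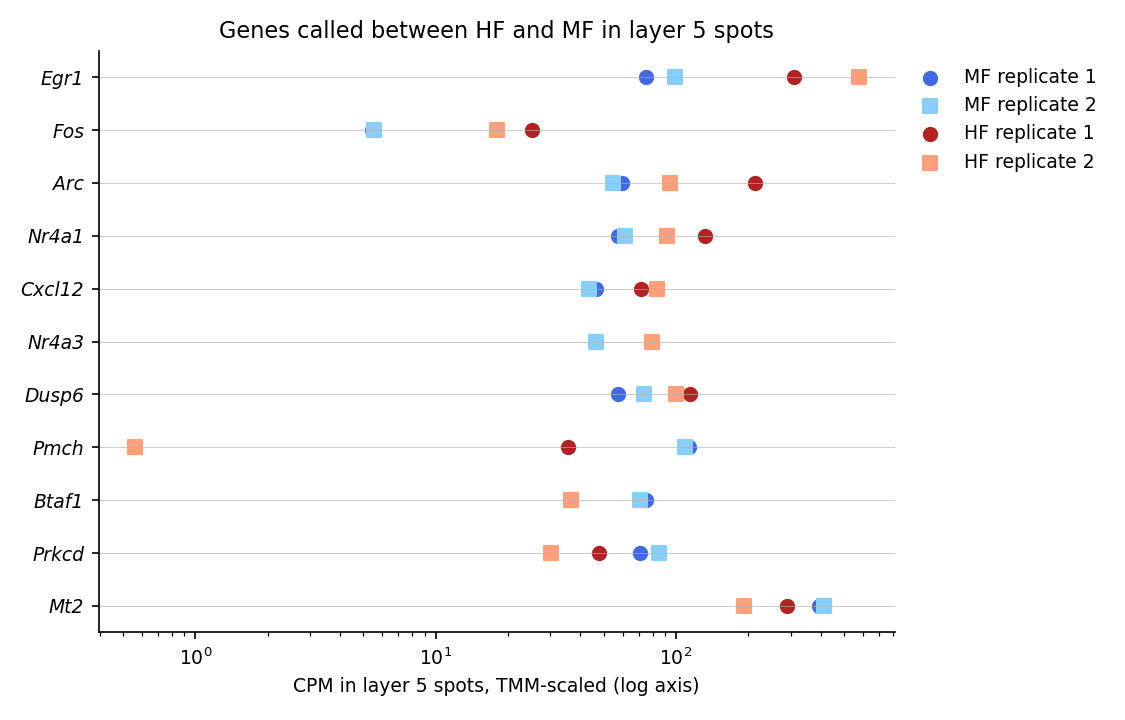
TMM-scaled CPM in layer 5 spots, on a log axis, for the 11 genes called between the diets; each point is 1 section, MF in blue and HF in red. HF and MF points do not overlap in any gene, and the widest gap is that of Pmch in HF replicate 2, at 0.560 CPM.

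A list of 33 activity-induced genes holds 6 of the 7 genes called higher (all but Cxcl12). Of its 30 tested genes, 27 had a positive log2 fold change, 18 lay higher in both HF than in both MF sections and 1 lower (17% and 16.9% of all genes did), and the median was 0.45, against 0.00 over all genes tested; without HF replicate 1 it was 0.20. The counts and the median include the 6 called genes, which are all among the 18. The list was chosen with earlier results of these data known. The summed level of the list was 2245, 2247, 3115 and 2949 CPM. Junb, an AP-1 subunit, measured 32.2 and 30.1 in MF replicates 1 and 2 and 88.2 and 46.5 in HF replicates 1 and 2 (log2 fold change 1.07 ± 0.22, adjusted p = 0.1) and Egr4 51.7 and 52.1 in MF replicates 1 and 2 and 77.9 and 81.2 in HF replicates 1 and 2 (log2 fold change 0.62 ± 0.14, adjusted p = 0.18), and neither passed the test. Junb was called without a filter on low counts, with the replicate number as block, with 2 layer 5 neighbours required, and without MF replicate 1 (1.15), MF replicate 2 (1.04) or HF replicate 2 (1.48). Without HF replicate 1 it was 0.55 and not called. Egr4 was called without the filter, with 250 spots and without HF replicate 1 (0.64). Some activity genes had no such difference. Egr3 measured 81.5, 66.9, 83.0 and 71.1 CPM, and Npas4, an activity-specific factor of neurons, 9.21, 4.91, 7.73 and 6.16 CPM, with the diets overlapping in both genes. Clock genes, which include light- and activity-responsive Per genes, had no call among 19 tested (median 0.11); Per2 measured 24.9 and 23.3 in MF replicates 1 and 2 and 34.1 and 36.4 in HF replicates 1 and 2 (log2 fold change 0.53 ± 0.19, adjusted p = 0.89).

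Pmch, the precursor of melanin-concentrating hormone, was lower in HF. It is made by neurons of the lateral hypothalamus and not of the cortex. Pmch (ENSMUSG00000035383, chr10:88091072-88092375) measured 113 and 109 in MF replicates 1 and 2 and 35.4 and 0.560 in HF replicates 1 and 2 (log2 fold change -2.71 ± 0.41, adjusted p = 0.013). MF sections were alike, HF replicate 1 was lower, and HF replicate 2 held 1 UMI, for which the exact 95% binomial interval is 0.0140 to 3.09 unscaled CPM (counting error only). Its 539, 177, 55 and 1 UMIs were spread thinly over layer 5 spots, with at most 10, 5, 3 and 1 in a spot and 98%, 66.7%, 28.7% and 0.667% of spots showing it. The remaining spots of the sections measured 784, 551, 354 and 0.758 CPM. The fold change rests on which HF section is used: -7.52 without HF replicate 1, a fit to that 1 UMI, and -1.65 without HF replicate 2. With DESeq2 or with spots chosen after thinning Pmch was not called.

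All 7 genes of the hypothalamus list were measured and 2 passed the filter on low counts. Their summed level in layer 5 spots was 132, 127, 42.2 and 92.1 CPM. Hcrt, the orexin precursor, measured 11.8, 7.94, 3.20 and 0 CPM in layer 5 spots and 87.5, 90.7, 72.6 and 0.271 in the remaining spots; for 0 UMIs in HF replicate 2 the limit is 1.66 CPM at 3 counts, and 2.05 CPM by the exact 95% interval. Hcrt was not called (log2 fold change -2.80 ± 0.62, adjusted p = 0.17), but it was without the filter, with the replicate number as block, with 250 spots, without MF replicate 2 (-2.95) and without HF replicate 1 (0 UMIs left in HF). Oxytocin (Oxt) and vasopressin (Avp) went the other way, with 0.415, 0.611, 0 and 52.7 and 1.04, 0, 0.640 and 33.3 CPM in layer 5 spots and 0.783, 4.64, 1.38 and 725 and 3.16, 2.79, 12.6 and 533 in the remaining spots. Both were below the filter, and both were called higher in HF without it and without MF replicate 1, MF replicate 2 or HF replicate 1. The hypothalamic peptides of the rest of a section thus appeared at low level in its layer 5 spots, and HF replicate 2 differed from the other sections in which peptides these were. Agrp and Pomc stayed at or below 1.83 CPM in layer 5 spots. The coronal level of each section is not given in the sources used here. The part of section level and of these hypothalamic genes in the Pmch result was not tested.

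Prkcd (ENSMUSG00000021948, chr14:30595354-30626210), a protein kinase C isoform abundant in thalamic relay neurons, measured 70.6 and 84.7 in MF replicates 1 and 2 and 47.6 and 30.2 in HF replicates 1 and 2 in layer 5 spots (log2 fold change -0.97 ± 0.18, adjusted p = 0.048). Both HF sections were below both MF sections, HF replicate 2 the lowest. The remaining spots measured 371, 394, 404 and 206 CPM, where only HF replicate 2 was low. Of 6 thalamus markers, 5 were tested, Prkcd alone was called, and the summed level in layer 5 spots was 294, 309, 252 and 239 CPM. Tcf7l2, a defining thalamic factor, measured 13.8, 17.8, 12.9 and 19.6 CPM in layer 5 spots and Slc17a6 48.0, 48.5, 47.0 and 33.6 CPM. The part of thalamic RNA in the Prkcd result was not tested. Without HF replicate 2 the log2 fold change was -0.65 and Prkcd was not called, nor was it with DESeq2, library size scaling, spots chosen after thinning or 2 layer 5 neighbours required.

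Btaf1 and Mt2 were lower in HF, and the HF sections also had the lower values in the remaining spots. Btaf1 (ENSMUSG00000040565, chr19:36926079-37012752), an ATPase that removes the TATA-binding protein from DNA, measured 75.0 and 70.5 in MF replicates 1 and 2 and 36.7 and 36.4 in HF replicates 1 and 2 (log2 fold change -1.0 ± 0.15, adjusted p = 0.013). The sections of each diet lay within a few CPM of each other. The remaining spots measured 70.4, 69.1, 37.9 and 37.0 CPM. Mt2 (ENSMUSG00000031762, chr8:94172664-94173568), a metal-binding metallothionein induced by zinc and glucocorticoids and rich in astrocytes, measured 392 and 412 in MF replicates 1 and 2 and 289 and 192 in HF replicates 1 and 2 (log2 fold change -0.74 ± 0.14, adjusted p = 0.043), and 575, 512, 363 and 305 CPM in the remaining spots. Of 8 astrocyte genes, 0 were called (median -0.13, summed level 2898, 3078, 2997 and 2558 CPM), and their part in the Mt2 result was not tested. Btaf1 was not called with DESeq2, thinned spots, spots chosen after thinning or 100 spots. Mt2 was not called with DESeq2, spots chosen after thinning, 250 spots, or without HF replicate 2 (-0.47).

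The number of calls depended on the sections and settings. Leaving out MF replicate 1, the deepest section, gave 11 higher and 9 lower, of which 8 were among the 11 reported genes; leaving out MF replicate 2 gave 9 and 7, HF replicate 1 gave 39 and 49, and HF replicate 2 gave 11 and 5. DESeq2 called 1 gene higher, Egr1, and 0 lower, with 98 of 15784 genes at an unadjusted p under 0.05. Spots chosen after thinning to 5000 UMIs also gave 1 higher, Egr1, and 0 lower in edgeR, with 514 of 11087 genes at an unadjusted p under 0.05.

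Whether the diet acts on layer 5 more than elsewhere is a question about the difference of fold changes. In edgeR, 0 of 11884 genes (0%) differed between layer 5 and all remaining spots, with 491 at an unadjusted p under 0.05, and 0 (0%) between layer 5 and layer 2-3 spots, with 506. Between layer 5 and layer 6 spots 1 gene was called (0.00841%), Pmch. The 7 genes called higher in layer 5 also had positive log2 fold changes in each of the other sets. The fitted difference, layer 5 less the other set, was above 0 for 7 of the 7 against the remaining spots. It was above 0 for 5 against layer 6 spots and for 1, Cxcl12, against layer 2-3 spots. For Nr4a3 the difference to layer 2-3 spots was -0.67 ± 0.23 (unadjusted p = 0.0063 in edgeR, not called). For Egr1 these were 2.44 in layer 2-3, 2.59 in layer 6 and 2.14 in the remaining spots, next to 2.40 in layer 5. For Fos they were 2.14, 1.34 and 0.99, next to 1.95; the difference to the remaining spots was 0.96 ± 0.33 (unadjusted p = 0.0054 and adjusted p = 1.0 in edgeR). For Arc the difference to the remaining spots was 0.60 ± 0.19 (adjusted p = 1.0 in edgeR). It was called without the filter on low counts (0.58, adjusted p = 0.041) and without HF replicate 2 (1.02), and was 0.09 without HF replicate 1; against layer 2-3 and layer 6 spots Arc was called in none of the settings run. With the filter and all 4 sections, none of the genes called higher in layer 5 differed from another set by this test. All sets come from the same 4 sections, so their values are not independent.

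Pmch measured 182, 114, 193 and 0.551 CPM in layer 6 spots, against 112, 108, 35.2 and 0.555 in layer 5 and 133, 99.1, 37.2 and 0 in layer 2-3 spots. HF replicate 1 was thus low in layer 5 and layer 2-3 but as high as MF in layer 6, while HF replicate 2 was near 0 in every set. The log2 difference of the diet effects, layer 5 less layer 6, was -1.89 ± 0.24 (adjusted p = 1.7e-05 in edgeR). It rested on HF replicate 1: without it HF holds 1 UMI in layer 5 and 1 UMI in layer 6 spots, too few to give a difference (0.53 in the fit, not called). The count of genes differing from the remaining spots also moved with the HF sections: without HF replicate 1 it was 4 higher and 1 lower, and without HF replicate 2 it was 1 higher, Arc, and 0 lower. Against layer 2-3 spots 1 gene was higher and 1 lower without HF replicate 1. Against layer 6 spots 2 genes were lower without HF replicate 2.

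**Figure D4:**
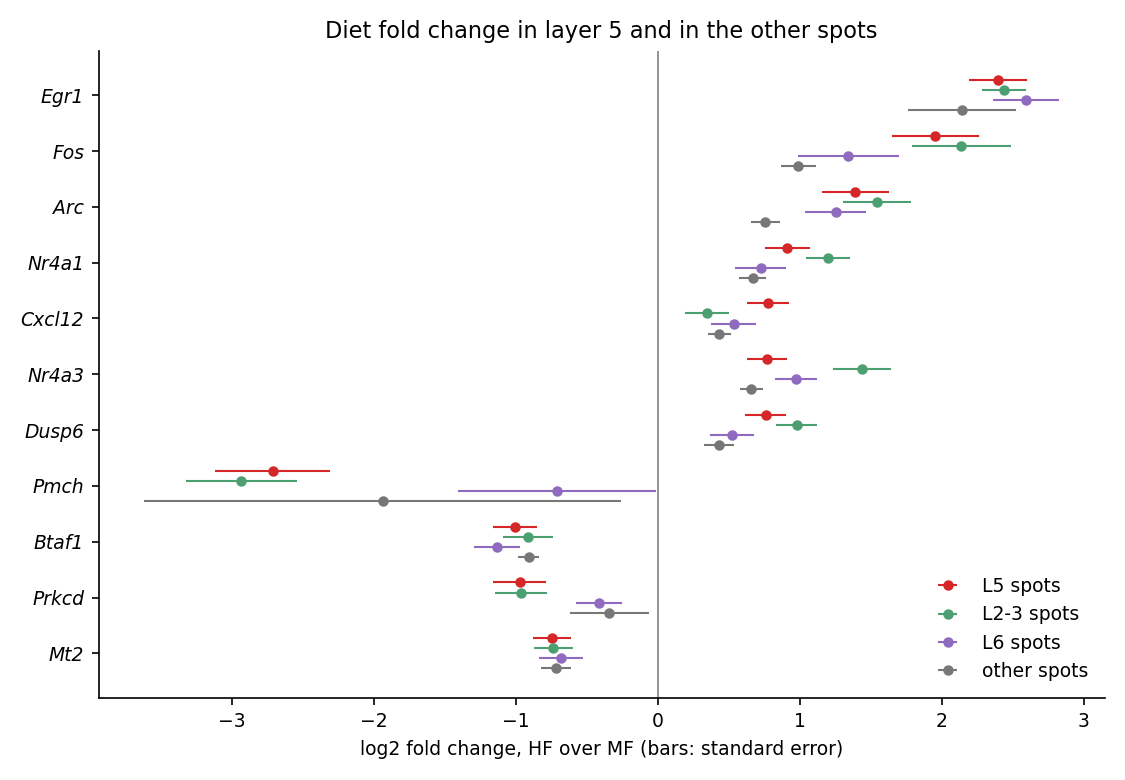
Log2 fold change of HF over MF for the 11 genes called in layer 5 spots, fitted separately in layer 5, layer 2-3, layer 6 and the remaining spots; bars are standard errors. Egr1 lies between 2.14 and 2.59 in all 4 sets, and Pmch in layer 6 spots (-0.71) is apart from layer 5 (-2.71).

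Lists of layer 5 identity held no call. The 10 tested extratelencephalic markers all had positive log2 fold changes (median 0.17, 0.03 to 0.64), where 5502 of all 10923 genes did. Both HF sections lay above both MF sections in 4 of these markers, and in 17% of all genes. Medians were -0.03 for the 8 intratelencephalic markers, 0.28 for the 5 near-projecting markers and -0.09 for the 12 large-axon genes. The near-projecting median rested on single sections, at 0.63 when HF replicate 1 was left out and -0.10 when HF replicate 2 was. Axon guidance genes of corticofugal neurons (19 tested) had a median of 0.01. Of 15 projection neuron transcription factors other than Fezf2, 11 were positive (median 0.17), 8 lay above in both HF sections and 0 below, where 17% of all genes lay above. With Fezf2 the median of this list was 0.18 in layer 5, 0.16 in layer 2-3, 0.07 in layer 6 and 0.18 in the remaining spots. Medians of the extratelencephalic markers in the same order were 0.17, 0.06, 0.05 and 0.08. No gene of these lists was called in edgeR at 2 sections each.

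Myelin genes had lower values in HF, without a call. All 12 had negative log2 fold changes (median -0.38, against 0.00 over all genes), 11 lay below in both HF sections (16.9% of all genes did), and the summed level was 11994, 14944, 11326 and 9509 CPM. Mal, a myelin lipid raft protein, measured 555 and 674 in MF replicates 1 and 2 and 436 and 439.7 in HF replicates 1 and 2 (log2 fold change -0.48 ± 0.10, adjusted p = 0.15). Mal was called without a filter on low counts, with the replicate number as block, with thinned spots, with 2 layer 5 neighbours required, without MF replicate 1 (-0.62), without HF replicate 1 (-0.47) and without HF replicate 2 (-0.48), and not without MF replicate 2 (-0.34). Myelin RNA was higher in lone layer 5 spots, and the number of these differed between sections, as given above; the part of this in the myelin values was not tested. The median of the list was -0.22 with spots chosen after thinning and -0.52 with 2 layer 5 neighbours required.

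Genes of folate uptake and metabolism, the pathway the diet feeds, held no call. Of 36 measured genes 23 passed the filter, with a median of -0.12, 6 positive and 17 negative; 9 lay below in both HF sections and 1 above, where 16.9% and 17% of all genes did. Ggh, which trims the glutamate tail of folate, was among the 9 and measured 20.7 and 19.0 in MF replicates 1 and 2 and 15.5 and 13.4 in HF replicates 1 and 2 (log2 fold change -0.49 ± 0.25, adjusted p = 0.9). Ahcyl1, of the same list, measured 674, 729, 675 and 634 CPM. Of 15 DNA methylation genes 13 were tested and 0 called in edgeR (median -0.04). Dnmt3a, a de novo methyltransferase, measured 199, 186, 198 and 180.4 CPM, and Dnmt1, the maintenance enzyme, 50.7, 41.7, 48.9 and 43.7 CPM. In Ahcyl1, Dnmt3a and Dnmt1 the diets overlapped. Of all 29 lists other than the score genes, 26 held no called gene, with medians from -0.38 to 0.28.

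Promoters of genes called higher are shown because these genes share a call in the same direction. Windows of 250 bases before a gene start were taken from RefSeq (GRCm38.p6) for 5 of the 7 genes called higher and all 4 called lower; windows of Egr1 and Arc were not analysed here. RefSeq places the start of Nr4a1 and Nr4a3 downstream of the GENCODE gene start printed above, so the Nr4a1 window lies inside that gene and the Nr4a3 window overlaps its start. The letters TGACG, the core of the cAMP response element, occurred on either strand in the windows of 4 of these 5 genes (Fos, Nr4a1, Cxcl12 and Nr4a3) and of 1 of the 4 called lower (Btaf1), against 17.8% of all 32851 promoter windows. The full element TGACGTCA, which contains the core, occurred in 0 of the 5, in 1 of the 4 (Btaf1) and in 1.55% of all. The AP-1 element TGACTCA occurred in 0 of the 5, in 2 of the 4 (Pmch and Mt2) and in 4.46% of all. The serum response element, counted by name and not by letters, occurred in none of these genes and in 1.47% of all. Bases further before the start were not searched, so a gene without a match may still hold an element there. A match describes letters, not a bound site. The windows of Fos (chr12:85473640-85473889), Nr4a1 (chr15:101266596-101266845) and Nr4a3 (chr4:48045055-48045304), all on the plus strand, hold 2, 4 and 4 matches; capitals mark TGACG or its reverse complement CGTCA.
Fos: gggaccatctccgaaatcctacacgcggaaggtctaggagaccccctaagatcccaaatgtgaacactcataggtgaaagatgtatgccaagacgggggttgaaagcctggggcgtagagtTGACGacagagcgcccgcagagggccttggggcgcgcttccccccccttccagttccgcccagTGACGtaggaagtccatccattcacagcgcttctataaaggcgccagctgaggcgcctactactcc
Nr4a1: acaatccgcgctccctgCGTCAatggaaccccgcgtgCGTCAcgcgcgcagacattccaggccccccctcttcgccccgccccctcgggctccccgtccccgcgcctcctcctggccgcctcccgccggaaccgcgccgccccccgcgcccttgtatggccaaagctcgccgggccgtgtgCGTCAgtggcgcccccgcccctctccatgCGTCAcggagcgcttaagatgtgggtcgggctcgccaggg
Nr4a3: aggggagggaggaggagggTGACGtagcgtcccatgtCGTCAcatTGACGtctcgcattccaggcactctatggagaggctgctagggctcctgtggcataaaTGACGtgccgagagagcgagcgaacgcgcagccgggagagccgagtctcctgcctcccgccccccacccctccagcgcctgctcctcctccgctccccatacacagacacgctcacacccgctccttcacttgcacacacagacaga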

How the data were processed

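Visium data of 4 sections (2 MF, 2 HF) were used as deposited. Values of some genes are not reported here. The authors made the raw UMI counts per gene and spot with Space Ranger 2.0.0 on mm10, together with Moran's I, a spatial clustering score per gene and section; the deposited counts carry no normalization. Array rows and columns gave positions. Summed counts were tested in edgeR 4.0.16 (R 4.3.3; TMM, filterByExpr, quasi-likelihood test, diet as the only term; for differences between sets of spots, section as block), with Benjamini-Hochberg adjustment over all genes tested, and in DESeq2 1.42.0 as an alternative. The pipeline was tested on simulated data. The authors' Wilcoxon test over single spots was not run, as spots of a section are not replicates. Ratios used a pseudocount of 1 CPM. Named genes were the score genes, the 20 highest and 5 lowest ratios among genes with at least 20 CPM, all called genes up to 12 per direction, up to 6 per difference test, and members of 30 gene lists. The layer 5 rule and the lists were chosen with earlier results of these data known. Gene positions are from GENCODE; tables and figures were made with Python 3.11.15, NumPy 2.4.6, pandas 2.3.3, SciPy 1.17.1 and matplotlib 3.10.9.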

Additional observations from a re-analysis of the deposited data

Results flagged for a closer look

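For 38 values, mostly the depth and the layer 5 ratios of named genes, the 4 sections were compared for 1 section far from the rest (Dixon's ratio of the gap to the range, past its 95% critical value). Chance picks out about 1 in 20 such sets. The 38 values include the score, the score genes and genes named for their ratio, so the 6 found describe the sections and carry no test. MF replicate 1 was far above the others in the summed UMIs of its layer 5 spots (4819468) and in the median per spot (31597.5). HF replicate 1 was apart in the log2 ratio of layer 5 to other spots for Satb1 (1.51), Cabp1 (1.32) and Dlk1 (-4.24), and MF replicate 2 for Amn (1.17).

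The diet effect on Pmch differed between layer 5 and layer 6 spots by a test of the difference itself, with a log2 difference of -1.89. It rests on HF replicate 1: without that section HF holds 1 UMI in each set, and the fitted 0.53 gives no direction.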

How the results depend on the processing

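Egr1 was called higher in layer 5 spots of HF under all 13 alternatives. The ratios of layer 5 to other spots kept their direction with 100 or 250 spots per section and after thinning to 5000 UMIs. Of these ratios 77 were classed as the same and 16 as moved. Counts of called genes moved. DESeq2 gave 1 higher and 0 lower, no filter on low counts 15 and 15, members chosen on thinned spots 1 and 0; thinned members gave 2 higher and 100 spots per section 4 higher. Taking the replicate number of the labels as a block gave 12 lower (9 higher); the pairing has no basis beyond a shared number, as residuals of sections with the same number correlated at r = 0.029. Leaving out 1 section in turn gave 9 to 39 higher and 5 to 49 lower. For the differences of diet effects, no filter gave 3 higher and 2 lower against all remaining spots, 1 higher against layer 2-3 and 2 lower against layer 6; leaving out 1 section gave 0 to 4 higher and 0 to 1 lower, 0 to 1 in each direction, and 0 to 2 lower, in the same order. The Pmch difference to layer 6 was -2.33 to 0.53 over these; the 0.53, without HF replicate 1, is fitted to 1 UMI in each set and gives no direction. Without a section, 1 diet has a lone sample, assumed to vary like the others. The cause of these changes was not tested. Of the gene values between the diets under alternatives, 167 kept direction and side of the threshold, 47 fell out of the calls, 30 became called, and 0 turned direction. Of the list medians between the diets, 331 were classed as the same and 46 as moved. Depth limits genes near 0: 3 counts are 0.622 to 1.92 CPM in layer 5 spots.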
